A study of Mus musculus with 6 samples.

Results

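The contractile and sarcomere genes examined here are 10 genes of the smooth muscle contractile apparatus: the muscle actins Actc1, Acta2 and Actg2, the myosin heavy chain Myh11, the myosin light chain kinase Mylk, the actin-binding proteins Cnn1, Tagln and Lmod1, the intermediate filament gene Des and the transcriptional coactivator Myocd. They were chosen by symbol, and all 10 were found among the 31054 features of the deposited matrices. Each gene was followed in smooth muscle, peribronchial fibroblast, pericyte and other fibroblast cells of aged mouse lung.

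Smooth muscle shortens when calcium and calmodulin activate myosin light chain kinase, which phosphorylates the light chains of myosin and lets it pull on actin filaments. Most of the genes of this apparatus are switched on together by serum response factor, which binds the CArG box in their promoters, and by its muscle-specific partner myocardin, the product of Myocd. In the lung these genes mark the muscle of airways and vessels, while pericytes and some fibroblasts around airways carry part of the same programme. Actc1, named for cardiac muscle, is also made by the heart muscle that sleeves the pulmonary veins.

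The promoters of the actins are shown first, because a shared binding motif is the known link between these genes. RefSeq promoter windows (GRCm38.p6, 250 bases before to 50 after a gene's start) matched 6 of the 10 genes, Actc1, Acta2, Cnn1, Des, Lmod1 and Mylk. Positions count from the RefSeq start of that table. For Actc1, Acta2, Cnn1, Lmod1 and Mylk this start lies inside the longer GENCODE gene interval given with each gene below, so a stretch before the RefSeq start can lie within that interval. A full CArG box, a pattern that reads as the same pattern on both strands, was found on these windows in 1 gene, Actc1, and in 1.63% of 32851 promoters. With at most 1 mismatch the motif was found in 3 genes, Actc1, Acta2 and Lmod1, and in 21.1% of promoters. Each line below gives the gene, the position of the motif's first base relative to the start and 30 bases read 5′ to 3′, with the motif in capitals.
Actc1, -47, full match: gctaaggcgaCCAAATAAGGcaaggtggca
Actc1, -175, 1 mismatch: ctccctagctCCCTATATGGccattgctct
Actc1, -138, 1 mismatch: ccctccccttCCTTACATGGtctgggagcc
Actc1, -87, 1 mismatch: gcccttggctCCAAGAATGGcctcagcggt
Acta2, -84, 1 mismatch: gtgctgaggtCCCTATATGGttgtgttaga
Acta2, -34, 1 mismatch: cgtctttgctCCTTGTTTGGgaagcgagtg
Lmod1, -189, 1 mismatch: gcccccttgtCTTTAAAAGGctaaactgct
Lmod1, -164, 1 mismatch: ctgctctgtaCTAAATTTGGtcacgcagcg
The Actc1 stretches lie on the minus strand at chr2:114052903-114052932, chr2:114053031-114053060, chr2:114052994-114053023 and chr2:114052943-114052972. Those of Acta2 lie on the minus strand at chr19:34255438-34255467 and chr19:34255388-34255417. The Lmod1 stretches lie on the plus strand at chr1:135324614-135324643 and chr1:135324639-135324668. The same 10 letters, CCCTATATGG, stood in the Actc1 and the Acta2 promoter. A match is a description of these letters and not a binding site shown by these data.

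The cells came from the lungs of male C57BL/6 mice of 21 months. In 3 mice, labelled p16-DTR (p16-CreERT2/R26-LSL-DTR), tamoxifen activates a Cre recombinase expressed from the p16 promoter, and the Cre then switches on the diphtheria toxin receptor. The 3 control mice carried p16-CreERT2 alone. Tamoxifen was given to all 6 mice over 5 days. Toxin followed 2 weeks later, again over 5 days, and the lungs were taken 2 weeks after that, so the controls were exposed to Cre, tamoxifen and toxin as well. Each mouse gave 1 library, mixed from 20000 sorted CD45- and 9000 CD45+ cells of the same lung.

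Libraries held 254200305 to 344421685 UMIs in 13482 to 17332 barcodes. Of 85386 retained cells, 23650 were gated by marker lists that contain none of the 10 genes. The gates held 336 smooth muscle, 944 peribronchial fibroblast, 580 pericyte and 21790 other fibroblast cells, with 30 to 88, 99 to 239, 58 to 140 and 2506 to 6050 cells per library. The names stand for "smooth muscle-like" and so on. Markers at least 2-fold higher in their gate than in the rest were 11 of 13 (smooth muscle) and 8 of 8 (peribronchial). In pericytes they were 12 of 13 and in other fibroblasts 14 of 18. The same markers set the gates, so this is built in and does not test the names. None of the 13 smooth muscle markers was among the 10 most raised genes of its gate, of which 6 were contractile genes. Of the gated barcodes, 54 occurred in more than 1 library. Cdkn2a, which encodes p16, checks the labels: in other fibroblasts it stood at 6.01, 6.23 and 4.30 counts per 1000000 UMIs of the gate in that library (CPM) in the libraries labelled p16-DTR, with 0.274, 0.161 and 0.257 in the controls (log2 fold change 4.55, SE 0.24, edgeR adjusted p = 0.00157). In peribronchial fibroblasts Cdkn2a had 6, 9 and 1 UMIs against 0 in each control, without overlap. In pericytes it had 3, 6 and 0 against 0 in each control, and in smooth muscle 2, 2 and 0 against 0, 0 and 7. The groups overlapped in both. The level in other fibroblasts, higher in mice treated to lose p16-high cells, goes against the direction of the labelled depletion. Every direction below therefore holds for the libraries as they are labelled. The tdTomato entry separated the groups in the same direction: in other fibroblasts it stood at 0.318, 0.265 and 0.524 CPM in the libraries labelled p16-DTR (78 UMIs), with 0 in the controls, and it was higher without overlap in immune cells too (0.237 against 0). It was at 0 in the smooth muscle, peribronchial and pericyte gates of all 6.

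All levels are in CPM. All 10 genes were highest in smooth muscle, and for each gene the lowest smooth muscle library lay above the highest library of every other gate. For Mylk this holds for alveolar and adventitial fibroblasts summed: alveolar fibroblasts of control 1 stood at 2056 CPM, above smooth muscle in 3 libraries (1907 to 2004). The gate in second place differed between genes. Peribronchial fibroblasts came second for Actc1, Acta2, Actg2, Cnn1, Tagln, Myocd and Lmod1, with a smooth muscle mean 2.91-fold (Myocd) to 166-fold (Actc1) above theirs. Pericytes came second for Myh11 (7.65-fold below smooth muscle) and Des (2.60-fold below), and other fibroblasts for Mylk (1.42-fold below). Of the 30 pairs of gates that are neighbours in these orders, 23 did not overlap over 6 libraries. The 7 that did were peribronchial and pericyte cells for Actc1, Acta2, Cnn1, Lmod1 and Mylk, and pericyte and other fibroblast cells for Actc1 and Cnn1. Since the gates are built from markers of these cell types, the levels across gates are a description with no test.

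**Figure D1:**
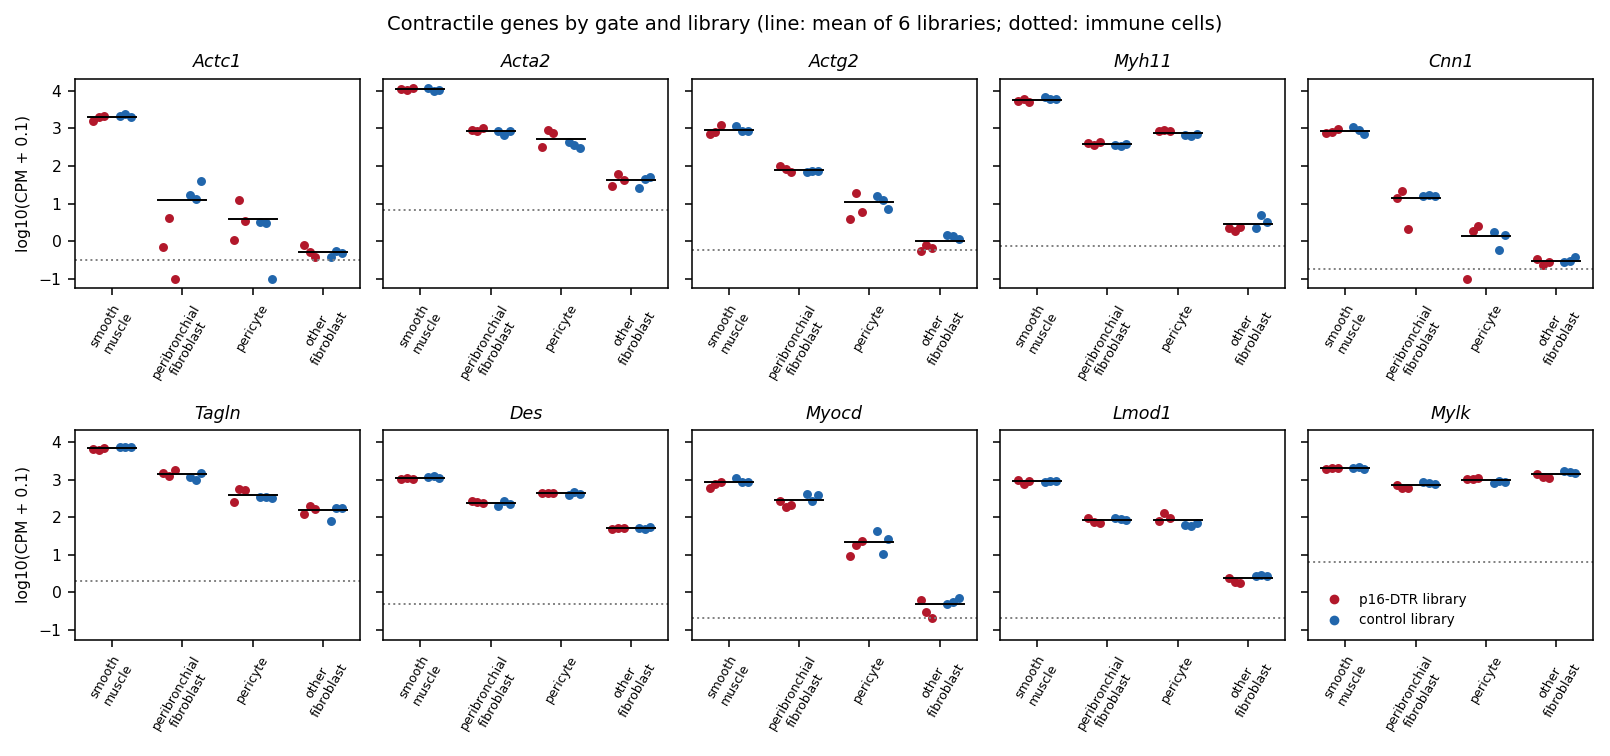
Level of each contractile gene in 4 gates, as log10 of CPM plus 0.1, with 1 point per library (red for labelled p16-DTR, blue for control), a bar at the mean of 6 libraries and a dotted line at the mean in immune cells of the same libraries. Every gene is highest in smooth muscle, and Mylk is the gene whose 4 gates lie closest together.

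Actc1 encodes cardiac alpha-actin (chr2:114047282-114053548, minus strand, GRCm38). In smooth muscle it stood at 1534, 2013 and 2105 CPM in the libraries labelled p16-DTR, with 2181, 2439 and 2017 in the controls. The groups overlapped, with a log2 fold change of -0.22 (SE 0.14, edgeR adjusted p = 0.848). In peribronchial fibroblasts Actc1 was at 0.577, 4.12 and 0 CPM in the libraries labelled p16-DTR, with 17.0, 13.1 and 39.3 in the controls. Here the groups did not overlap. The count of 0 in the library labelled p16-DTR 3 allows up to 1.498 CPM by counting error alone (3 counts). The means were 1.57 ± 2.23 against 23.2 ± 14.1 (SD, n = 3 libraries each), and the log2 fold change was -4.01 (SE 0.70, edgeR adjusted p = 0.0241). The sums behind these values were 2, 8 and 0 UMIs against 63, 29 and 112, so the gene passed the filter on low counts through the control libraries, the group where it is high. Its fold change and p are therefore given as a description. With that limit, Actc1 was the single one of the 10 genes under 0.05 in this gate, where 1.96% of 11081 tested genes passed (217 genes, and 29 to 403 when 1 library was left out). The call was lost without the library labelled p16-DTR 3 (-3.54, adjusted p = 0.0799) and without control 2 (-4.26, adjusted p = 0.0559), and kept without each of the other 4.

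The peribronchial difference rested on few cells. The gate held 10 Actc1 UMIs in the libraries labelled p16-DTR, compared with 204 in the controls. Of those 214 UMIs, 188 lay in 5 cells with at least 10 UMIs each, all of them in control libraries (2, 1 and 2 cells). A single cell gave 46.0%, 89.7% and 79.5% of the Actc1 UMIs of control 1, 2 and 3. Another 10 cells had fewer than 10 UMIs (2 in libraries labelled p16-DTR, 8 in controls), and 929 cells had none. In the 5 cells the other contractile genes were higher too: Acta2 stood at 4039 CPM against 833 in the cells without Actc1, Myh11 at 3032 against 348, Cnn1 at 433 against 10.4 and Tagln at 4981 against 1354. They carried a median of 7 of 8 peribronchial markers and 3 of 13 smooth muscle markers, against 6 and 2 in the cells without Actc1. Their median smooth muscle score was 0.404 against 0.185, and their median peribronchial score 0.895 against 0.808. None of the 15 cells with Actc1 fell in the cluster that holds most smooth muscle cells. Cardiomyocyte markers, a list that is 17 genes long, stood at 6.82 UMIs per 10,000 in the 5 cells (63 UMIs) and at 0.423 in the cells without Actc1. The list was not low in smooth muscle either, at 4.23 in cells of that gate with an Actc1 UMI and 2.06 in those without. Marker sums of the peribronchial gate moved as well. The 8 peribronchial markers, none of them at 0, summed to 10244 to 10545 CPM in the libraries labelled p16-DTR. The controls stood at 11061 to 11802, without overlap. The 13 smooth muscle markers, 1 of them at 0, summed to 1425 to 1752 and 1189 to 1464, which overlap. Only 4 of the 13 had enough counts to be tested in this gate. Mustn1, on that list, was among the 10 most raised genes of the peribronchial cluster. The sum is therefore not particular to smooth muscle cells. The part of these marker sums in the Actc1 result was not tested.

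**Figure D2:**
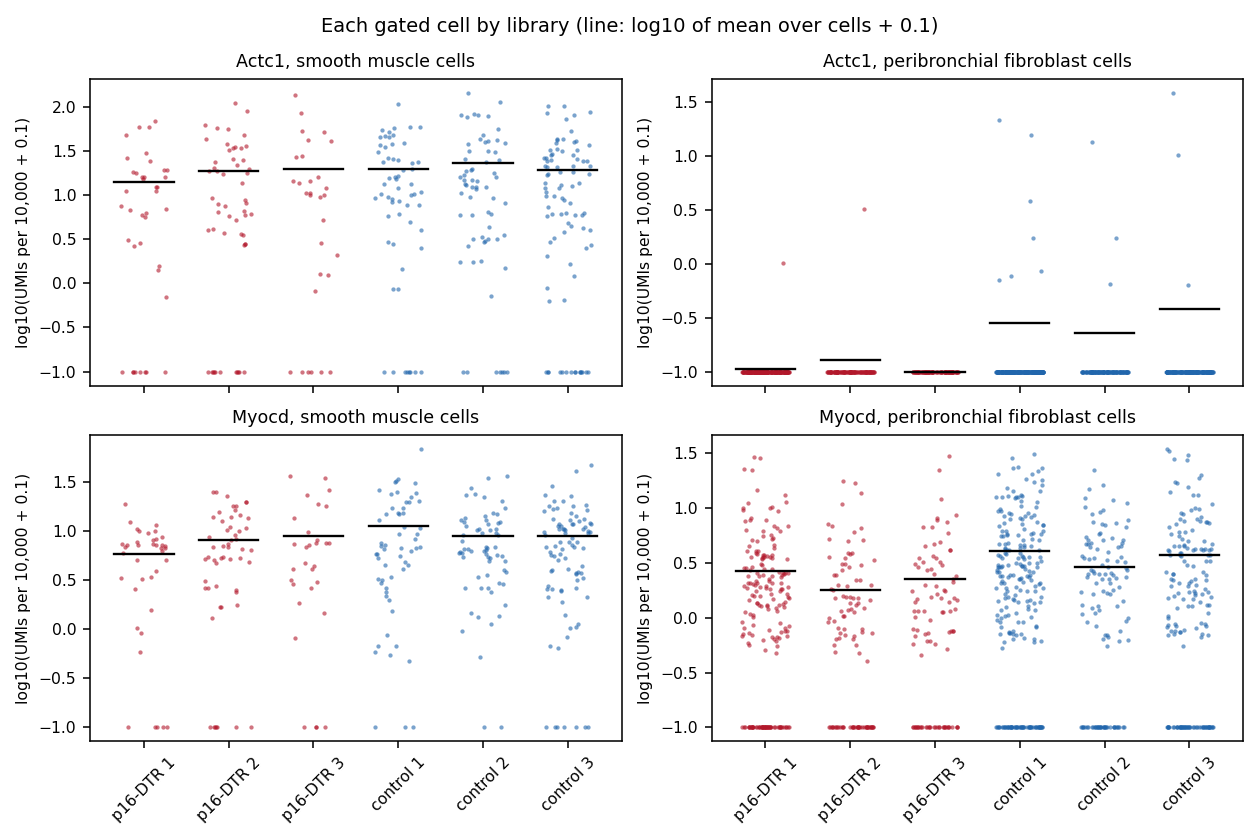
Actc1 (top) and Myocd (bottom) in each smooth muscle (left) and peribronchial fibroblast (right) cell by library, as log10 of UMIs per 10,000 UMIs of the cell plus 0.1; cells without a UMI lie at -1, and the bar is the mean over cells on the same scale. In peribronchial cells Actc1 is seen in 15 cells, 13 of them in controls, while Myocd is spread over most cells of every library.

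In pericytes Actc1 was at 0 to 12.6 CPM and in other fibroblasts at 0.270 to 0.688, against 0.167 to 0.261 in immune cells, which should not make it. The pericyte sums were 1 to 14 UMIs in 5 libraries and 0 in control 3. Actc1 was too low to be tested in pericytes. In other fibroblasts its log2 fold change was 0.36 (SE 0.37). That sign turned when doublets were kept (-0.11) and in alveolar fibroblasts alone (-0.38).

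Within smooth muscle, 281 of 336 cells had an Actc1 UMI (98 in libraries labelled p16-DTR, 183 in controls). The 55 without (25 in libraries labelled p16-DTR, 30 in controls) were less clearly smooth muscle: 36 of 55 lay in the smooth muscle cluster against 275 of 281, with a median smooth muscle score of 0.742 against 1.46. They had less of the rest of the apparatus, with Acta2 at 4427 CPM against 12030 in the cells with Actc1, Myh11 at 2401 against 6659 and Mylk at 1475 against 2133. Across the cells of a library, Actc1 went most closely with Cnn1 (median Spearman correlation 0.67 over 6 libraries, 0.61 to 0.73), then Acta2 (0.62) and Myh11 (0.59). Myocd had weaker relations with the structural genes, with medians of 0.40 to Actc1, 0.30 to Acta2 and 0.41 to Myh11. These are descriptions, since cells of 1 library share its depth and dissociation.

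A second source of Actc1 lay outside the gates. A group of 22 barcodes with at least 12 of 17 cardiomyocyte markers held 4103 Actc1 UMIs, at 79.5 to 307 (median 184) UMIs per 10,000 per barcode. Acta2, Actg2, Myh11, Cnn1, Tagln and Lmod1 had 0 UMIs in them, Mylk had 47, Myocd 5 and Des, which heart muscle also makes, 213. The libraries labelled p16-DTR held 7, 3 and 8 such barcodes and the controls 3, 1 and 0, which overlap (exact two-sided permutation p = 0.2, smallest possible 0.1). These barcodes held 56.3%, 24.7% and 35.2% of all Actc1 UMIs of the libraries labelled p16-DTR and 13.4%, 3.97% and 0% of those of the controls. Smooth muscle cells held 40.04%, 71.4% and 62.3% and then 80.1%, 93.0% and 93.8%. Over whole libraries Actc1 stood at 12.4, 13.5 and 9.04 CPM in those labelled p16-DTR and at 11.8, 15.5 and 15.8 in the controls. Without the cardiomyocyte-marker barcodes the values were 5.42, 10.1 and 5.86 against 10.2, 14.9 and 15.8, which do not overlap, though control 1 and the library labelled p16-DTR 2 lie close. In sums over a library, fewer cells of a type and less RNA per cell cannot be told apart.

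**Figure D3:**
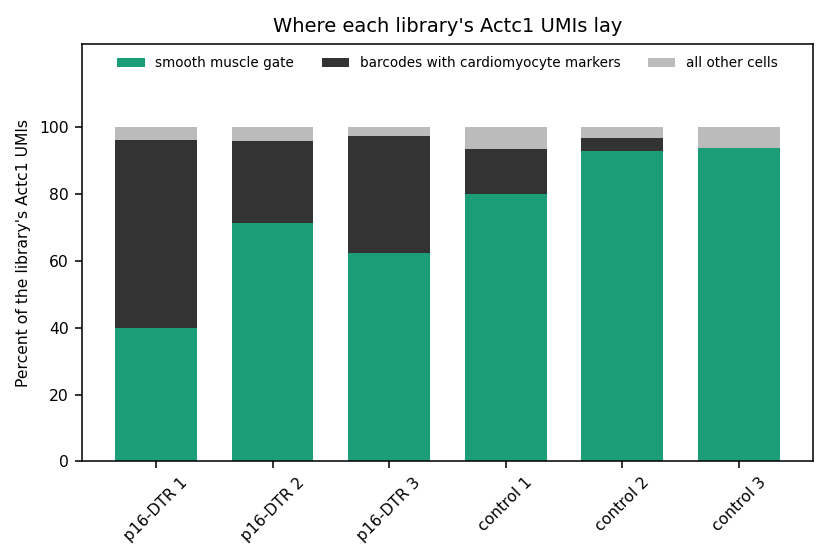
Percent of each library's Actc1 UMIs in smooth muscle cells (green), barcodes with cardiomyocyte markers (black) and all other cells (grey). The black part is 24.7% to 56.3% in the libraries labelled p16-DTR, compared with 0% to 13.4% in the controls.

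Acta2, the alpha-actin of smooth muscle (chr19:34241090-34255590, minus strand), had the largest log2 fold change of the 8 genes tested in pericytes. In smooth muscle it stood at 10991, 10529.5 and 11585 CPM in the libraries labelled p16-DTR, with 11644, 10141 and 10812 in the controls, with a log2 fold change of 0.03 (SE 0.10). In peribronchial fibroblasts it was at 909, 850.4 and 1040.3 against 876, 685 and 839, a log2 fold change of 0.25 (adjusted p = 0.268). In pericytes it was at 325, 891 and 754 in the libraries labelled p16-DTR, with 436, 355 and 305 in the controls. The library labelled p16-DTR 1 lay with the controls, so the groups overlapped, with a log2 fold change of 0.86 (SE 0.28, adjusted p = 0.386). Without that library it was 1.18 with an edgeR adjusted p of 0.0215, while the other 5 fits with 1 library left out gave 0.56 to 1.003 (adjusted p 0.493 to 0.780) and did not pass. In other fibroblasts Acta2 was at 26.3 to 60.8 CPM, above the 5.27 to 9.46 of immune cells, and the groups overlapped.

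Actg2, the gamma-actin of smooth muscle (chr6:83512905-83536265, minus strand), was at 715, 827 and 1219.7 CPM in smooth muscle of the libraries labelled p16-DTR and at 1142, 837 and 841 in the controls, a log2 fold change of -0.02. Peribronchial fibroblasts had 100.5, 83.4 and 70.9 against 70.3, 73.4 and 72.6, and pericytes 3.79 to 18.96. In other fibroblasts Actg2 was at 0.459, 0.703 and 0.540 in the libraries labelled p16-DTR, with 1.36, 1.28 and 1.02 in the controls, and the groups did not overlap. The log2 fold change there was -1.08 (SE 0.22, edgeR adjusted p = 0.0675; DESeq2 adjusted p = 0.00373). The libraries labelled p16-DTR stood at about the level of immune cells (0.354 to 0.652), and 21 of 8608 of their cells had an Actg2 UMI after thinning, against 68 of 12156 in the controls (0.2495% ± 0.0589 against 0.549% ± 0.0566, SD, n = 3 libraries each). Reads in the near-identical coding parts of the actins can be shared among these genes, so their counts rest on the parts that differ.

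Myh11, the motor protein of smooth muscle (chr16:14194535-14291372, minus strand), stood in smooth muscle at 5383, 6083 and 4904 CPM in the libraries labelled p16-DTR, with 6764, 6032 and 6124 in the controls. The groups overlapped (log2 fold change -0.20, SE 0.11, adjusted p = 0.816). In pericytes it was at 838, 899 and 857 against 683, 628 and 708, and every library labelled p16-DTR lay above every control. The log2 fold change there was 0.37 (SE 0.09, adjusted p = 0.216). Peribronchial fibroblasts had 400.1, 364 and 434.5 against 354, 346 and 387, a log2 fold change of 0.17. In other fibroblasts Myh11 was at 2.09, 1.78 and 2.21 against 2.11, 4.92 and 3.16, a log2 fold change of -0.71 (adjusted p = 0.215).

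Mylk, the kinase that activates myosin (chr16:34745210-35002420, plus strand), did not follow the other genes: its level in other fibroblasts came close to that in smooth muscle. In smooth muscle it stood at 1937, 2004 and 2067 CPM against 2083, 2244 and 1907, a log2 fold change of -0.05. In other fibroblasts it was at 1408, 1216 and 1106 in the libraries labelled p16-DTR, with 1702, 1614 and 1547 in the controls, which did not overlap (-0.36, SE 0.10, edgeR adjusted p = 0.116; DESeq2 adjusted p = 0.0107). Alveolar fibroblasts carried most of it, with 1418 ± 182 against 1906 ± 131 (SD, n = 3 each), while adventitial fibroblasts had 308 ± 35.7 against 334 ± 10.3 and overlapped. Groups did not overlap for 26.8% of all genes in alveolar fibroblasts and for 19.6% in adventitial fibroblasts (9.58% higher). In peribronchial fibroblasts Mylk was at 720.2, 589 and 624 against 874, 811 and 769.5, again without overlap (-0.31, SE 0.10, adjusted p = 0.126). Pericytes stood the other way, at 1022, 1072 and 1095 against 839.9, 957 and 895 (0.25, SE 0.09, adjusted p = 0.458). Mylk overlaps 1700119H24Rik, E130310I04Rik and Gm21691 in the annotation, all of them antisense genes on the minus strand. Whether they affect the count of Mylk was not tested.

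Cnn1, calponin, an actin-binding inhibitor of myosin (chr9:22099216-22109630, plus strand), was after Actc1 the gene most restricted to smooth muscle. It stood there at 765, 801 and 965 CPM in the libraries labelled p16-DTR, with 1078, 887 and 708 in the controls, a log2 fold change of -0.07. Peribronchial fibroblasts had 14.1, 21.6 and 2.00 against 16.2, 16.3 and 15.4, a log2 fold change of -0.30 (SE 0.46). Pericytes were at 0 to 2.45 and other fibroblasts at 0.133 to 0.269, against 0.0372 to 0.155 in immune cells. Both groups overlapped in all 4 gates.

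Tagln, transgelin, an actin-crosslinking protein (chr9:45929619-45936058, minus strand), was at 6804, 6214 and 7138 CPM in smooth muscle of the libraries labelled p16-DTR and at 7547, 7349.8 and 7297 in the controls. The groups did not overlap, with a log2 fold change of -0.13 (SE 0.10, adjusted p = 0.889). In peribronchial fibroblasts it was at 1545, 1249.6 and 1868 against 1174, 971 and 1544, a log2 fold change of 0.37 (adjusted p = 0.286). In pericytes it was at 258, 578 and 545 against 349, 343 and 324, a log2 fold change of 0.45, and 0.74 with an edgeR adjusted p of 0.0215 without the library labelled p16-DTR 1. The other 5 fits with 1 library left out gave 0.24 to 0.48 and did not pass (adjusted p 0.783 to 0.877). Other fibroblasts had 82.3 to 200.2, far above immune cells (1.77 to 2.28). Tagln overlaps Pcsk7 and Gm48529 in the annotation.

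Des, desmin, the intermediate filament of muscle (chr1:75360329-75368579, plus strand), overlapped between groups in all 4 gates. In smooth muscle it stood at 1031, 1112 and 1082 CPM against 1214, 1263 and 1085, and in peribronchial fibroblasts at 268, 261 and 240.2 against 206, 266 and 229. Pericytes had 450.5, 448 and 435 against 401, 461 and 414. Other fibroblasts had 48.9 to 53.8 in all 6 libraries, a log2 fold change of 0.00 (SE 0.05). Des overlaps Gm15179.

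Myocd, the coactivator of serum response factor (chr11:65176561-65269989, minus strand), had a log2 fold change below 0 in each of the 4 gates. In smooth muscle it stood at 607, 787 and 857 CPM against 1085, 896 and 895 in the controls. The groups did not overlap, and the log2 fold change was -0.35 (SE 0.15, adjusted p = 0.732). In peribronchial fibroblasts it was at 271, 186 and 212 against 420.5, 278 and 395, again without overlap. The log2 fold change there was -0.68 (SE 0.17, edgeR adjusted p = 0.0594; DESeq2 adjusted p = 0.00563), and without the library labelled p16-DTR 1 it was -0.84 (adjusted p = 0.0308). The other 5 fits with 1 library left out gave -0.83 to -0.56 and did not pass (adjusted p 0.0574 to 0.188). In pericytes it was at 9.46, 18.1 and 23.7 against 44.5, 10.5 and 25.7 (-0.61) and in other fibroblasts at 0.111 to 0.627 (-0.74, adjusted p = 0.427), both overlapping. The level in other fibroblasts came near that of immune cells (0.0308 to 0.264). Its parts stood opposite ways, at means of 0.172 against 0.140 in alveolar and 0.877 against 2.17 in adventitial fibroblasts, with overlap in both. Over the 4 gates together the log2 fold change of Myocd was -0.59 (SE 0.14, edgeR adjusted p = 0.0879; DESeq2 adjusted p = 0.00264). That sum also carries the makeup of the gates: smooth muscle, where Myocd is highest, was 1.26% of gated cells in the libraries labelled p16-DTR, compared with 1.69% in the controls, with overlap.

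The share of cells pointed the same way. After each cell was thinned to 5000 UMIs, 45.1%, 40.6% and 40.8% of peribronchial cells had a Myocd UMI in the libraries labelled p16-DTR, compared with 58.8%, 53.3% and 59.1% in the controls (42.2% ± 2.56 against 57.1% ± 3.28, SD, n = 3 each). The groups did not overlap, and the exact permutation p was 0.1, the smallest that 3 against 3 can give. Unthinned, the shares were 66.4% ± 4.77 and 71.4% ± 3.42. Immune cells, which should lack the transcript, had 0.063% after thinning, at a median depth of 15712 and 16108 UMIs per cell in the 2 groups against 15704 to 19457 per library in the gate.

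Lmod1, leiomodin, which starts new actin filaments (chr1:135324807-135368065, plus strand), was at 975, 769 and 937 CPM in smooth muscle of the libraries labelled p16-DTR and at 867, 938 and 953 in the controls, a log2 fold change of -0.04. In pericytes it was at 78.6, 133 and 95.6 against 61.1, 58.0 and 70.5, without overlap, a log2 fold change of 0.70 (SE 0.18, adjusted p = 0.243). In other fibroblasts it was at 2.31, 1.75 and 1.73 against 2.68, 2.88 and 2.63, also without overlap, a log2 fold change of -0.47 (SE 0.16, adjusted p = 0.147). Peribronchial fibroblasts had 69.9 to 97.0, and the groups overlapped.

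**Figure D4:**
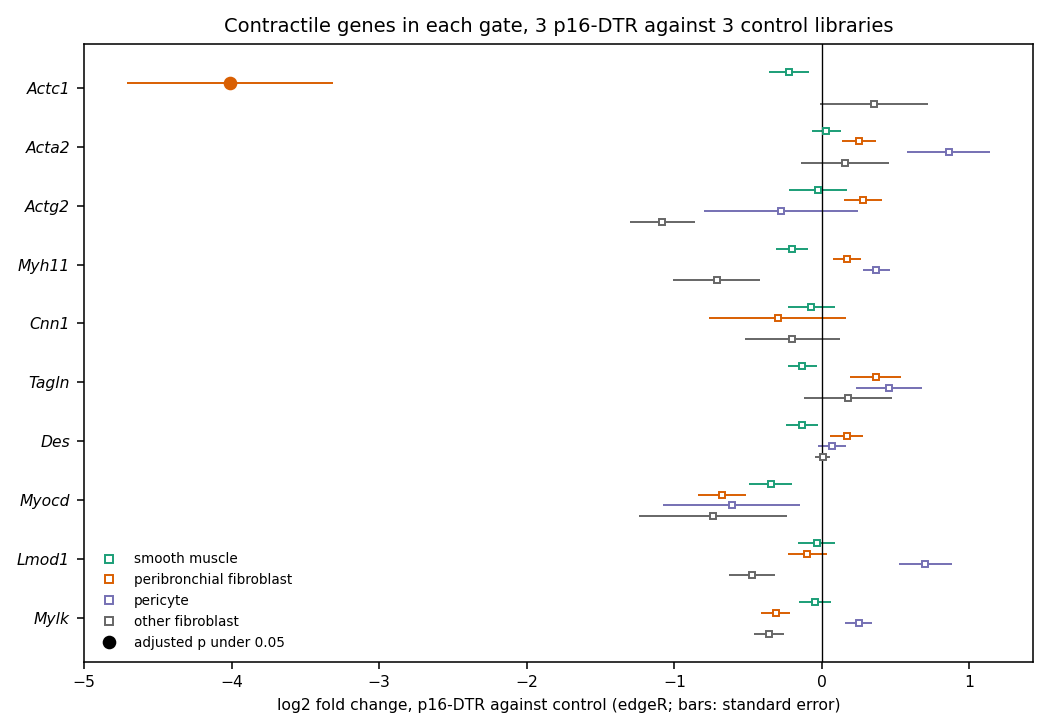
Log2 fold change of each contractile gene in the libraries labelled p16-DTR against control in 4 gates (edgeR; bars are the standard error, n = 3 libraries each), with a filled circle where the adjusted p is under 0.05. The single filled point is Actc1 in peribronchial fibroblasts at -4.01, a gene that passed the filter on low counts through the controls (10 UMIs against 204).

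By gate, none of the 10 genes passed the edgeR test in smooth muscle, where 0% of 9896 genes did. Myocd was the 1 gene with an unadjusted p under 0.05, and DESeq2 called none of the 10. Over all genes 652 (6.59%) had an unadjusted p under 0.05, and DESeq2 called 20 (0.202%). Groups did not overlap for 2 of the 10, Tagln and Myocd, both lower, beside 6.14% of all genes lower, 5.73% higher and 11.9% in either direction. In peribronchial fibroblasts 3 did not overlap, Actc1, Myocd and Mylk, all lower, beside 14.2% of all genes lower, 9.99% higher and 24.2% in all. The edgeR calls there were 1.16% lower and 0.803% higher. There 3 of the 10 had an unadjusted p under 0.05 and DESeq2 called Actc1 and Myocd, beside 18.9% and 3.04% of all genes. Actc1 stands in each of these counts as a description only. It passed the filter on low counts through the controls, with 10 UMIs against 204. In pericytes 0 of 8 tested passed, beside 0.0805% of 9935 genes (0.0403% higher and 0.0403% lower), with 4 at an unadjusted p under 0.05 and none called by DESeq2 (8.59% and 0.413% of all genes). There 3 did not overlap, Myh11, Lmod1 and Mylk, all higher, beside 6.31% of all genes higher, 7.34% lower and 13.6% in all. In other fibroblasts 0 of 10 passed, beside 0.00571% of 17523 genes, which is Cdkn2a alone. In that gate 4 had an unadjusted p under 0.05, beside 21.7% of all genes, and DESeq2 called Actg2 and Mylk, beside 7.76%. Again 3 did not overlap, Actg2, Lmod1 and Mylk, all lower, beside 16.2% of all genes lower and 26.9% in all. Over the 4 gates together 0 of 10 passed with edgeR (2 had an unadjusted p under 0.05), 2 with DESeq2 (Myocd and Mylk), beside 0.00562% of all genes with edgeR, 21.7% at an unadjusted p under 0.05 and 7.84% with DESeq2.

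Whether an effect differed between gates was tested directly, as the effect in a gate minus that in peribronchial fibroblasts. None of the 10 genes passed in any of the 3 contrasts, beside 0.274% (smooth muscle), 0.218% (pericytes) and 0.291% (other fibroblasts) of 12390 genes. The Actc1 values share the limit of the peribronchial sums, 10 against 204 UMIs, and are given as a description. For Actc1 the difference was 3.80 (SE 0.82, edgeR adjusted p = 0.0597) in smooth muscle, 5.56 (adjusted p = 0.104) in pericytes and 4.39 (SE 0.93, adjusted p = 0.0501) in other fibroblasts. For pericytes the difference was 0.55 (SE 0.14, adjusted p = 0.0960) for Mylk and 0.80 (SE 0.24, adjusted p = 0.164) for Lmod1. Without the library labelled p16-DTR 1 these were 0.67 (adjusted p = 0.0302) and 1.12 (adjusted p = 0.0284), while the other 5 fits with 1 library left out did not pass (0.48 to 0.60 for Mylk, adjusted p 0.170 to 0.312, and 0.52 to 0.93 for Lmod1, adjusted p 0.263 to 0.414). Pericytes set against other fibroblasts gave 1.1997 for Lmod1 (adjusted p = 0.178), 0.63 for Mylk (0.191) and 1.06 for Myh11 (0.269), in a contrast where 0.0161% of all genes passed.

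The makeup of the pericyte gate moved beside its contractile genes. Of pericyte cells, 12.1%, 14.3% and 27.9% fell in the smooth muscle cluster in the libraries labelled p16-DTR (7 of 58, 9 of 63 and 19 of 68) against 10.4%, 9.56% and 8.57% in the controls (12 of 115, 13 of 136 and 12 of 140), without overlap. In those cells Acta2 stood at 2496, 3698 and 1984 CPM in the libraries labelled p16-DTR, with 4006, 4278 and 2793 in the controls, which overlap. Tagln was lower there without overlap, at 1847, 2279 and 1247 against 2707, 3639 and 2687. Myh11 and Lmod1 overlapped in those cells. In the remaining pericytes Acta2 was at 45.9, 378 and 174 in the libraries labelled p16-DTR, with 37.6, 60.3 and 90.5 in the controls, which overlap. Tagln in the remaining pericytes overlapped too, at 54.5 to 267 against 85.8 to 119.9. Lmod1 in the remaining pericytes was at 55.5, 83.3 and 64.9 against 23.8, 43.4 and 35.6, and Myh11 at 672, 677 and 774 against 491, 519 and 564, both without overlap. The 8 peribronchial markers, 1 of them at 0, summed to 131 to 246 CPM in pericytes of the libraries labelled p16-DTR and 100.3 to 110.4 in the controls. The 13 smooth muscle markers, 2 of them at 0, summed to 404 to 435 and 429 to 487, which overlap. The 17 cardiomyocyte markers, 8 of them at 0, summed to 62.3 to 68.6 against 87.3 to 117, without overlap. Median depth was 17780.5 to 18328.5 against 15870.0 to 16257.5 UMIs per cell, without overlap. What part these play in the pericyte values was not tested.

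After thinning, 11 of the 40 shares of cells with a UMI (10 genes in 4 gates) did not overlap between groups, beside 16.7% of 48435 shares when all genes tested in the 4 gates were thinned the same way, and the smallest adjusted p was 0.364 over the 40. Besides Myocd and Actc1 in peribronchial cells they were Myh11 (94.1% against 96.5%), Tagln (94.1% against 97.6%) and Lmod1 (90.5% against 95.9%) in smooth muscle, all lower in the libraries labelled p16-DTR. In pericytes Actc1 (2.22% against 0.585%), Lmod1 (30.3% against 19.2%) and Mylk (100% against 96.4%) were higher. The Actc1 share there rests on few UMIs, 1, 14 and 4 against 6, 6 and 0 before thinning. In CPM the groups overlapped for Actc1 in pericytes, where it was too low to be tested. In other fibroblasts Actg2, Myh11 and Lmod1 were lower, at means of 0.2495% to 0.704% against 0.549% to 1.11%. Immune cells had 0.167%, 0.323% and 0.0529% for these 3 genes at the same 5000 UMIs. Smooth muscle made up 1.26% ± 0.33 of gated cells in the libraries labelled p16-DTR, compared with 1.69% ± 0.67 in the controls, peribronchial fibroblasts 4.09% ± 1.07 and 3.89% ± 0.22, and pericytes 1.99% ± 0.49 and 3.12% ± 1.25. These shares overlapped for all 4 gates, and the sort into CD45- and CD45+ cells sets what each is a share of.

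The wider pathway was followed through lists chosen with these data known. Of 20 other genes of the contractile apparatus, such as Myl9, Tpm2 and Smtn, none passed edgeR in any gate. The count at an unadjusted p under 0.05 was 0 of 20 in smooth muscle, 7 of 20 in peribronchial, 9 of 19 in pericyte and 4 of 20 in other fibroblast cells, beside 6.59%, 18.9%, 8.59% and 21.7% of all genes. DESeq2 called Flna, Myl9 and Tpm2 in pericytes, Vcl in other fibroblasts and none in the other gates, beside 0.413% of all genes in pericytes and 7.76% in other fibroblasts. The median log2 fold change of the list in pericytes was 0.25, beside 0.00 over all genes there, with 7 genes higher and 1 lower without overlap, beside 6.31% and 7.34% of all genes. In the other gates it was -0.02, 0.04 and -0.01.

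In peribronchial fibroblasts, where edgeR called 1.96% of all genes, 1 gene was called in each of the next lists. Of 16 transcription factors and cofactors 1 was lower, Prdm6, a repressor expressed in smooth muscle (-0.67, SE 0.12, adjusted p = 0.0260). Of 7 nonmuscle actin and myosin genes 1 was higher, Tpm4, a tropomyosin (0.67, SE 0.13, adjusted p = 0.0288). These calls were fragile: of 6 fits with 1 library left out, Tpm4 passed in 2 and Prdm6 in 1 (without the library labelled p16-DTR 1). In smooth muscle, pericytes and other fibroblasts neither list had an edgeR call. The nonmuscle list in pericytes had 3 of 7 genes higher without overlap (6.31% of all genes were) and 3 of 7 at an unadjusted p under 0.05 (8.59% of all genes), and its 8 genes summed to 6192 to 6794 CPM against 5312 to 5519, without overlap. In smooth muscle the sum stood the other way, at 7860 to 8433 against 8712 to 8906. DESeq2 called Prdm6, Srf and Tead1 and the nonmuscle gene Tpm3 in other fibroblasts, where it called 7.76% of all genes, and edgeR called Tpm3 in alveolar fibroblasts alone (-0.57, SE 0.09, adjusted p = 0.0472).

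Genes that dissociation of tissue can induce, such as Fos and Egr1, were followed as a sign of cell handling. None of 12 passed edgeR in any gate, and 2, 3, 2 and 7 had an unadjusted p under 0.05 in smooth muscle, peribronchial, pericyte and other fibroblast cells, beside the same 6.59%, 18.9%, 8.59% and 21.7% of all genes. DESeq2 called Atf3 in peribronchial and 5 genes in other fibroblast cells, beside 3.04% and 7.76% of all genes. Their medians were -0.20, -0.14, -0.10 and -0.20. In peribronchial fibroblasts their sum was 18900 to 19554 CPM in the libraries labelled p16-DTR, compared with 19646 to 23752 in the controls, without overlap, beside the lower Actc1, Myocd and Mylk. In other fibroblasts it was 9058 to 10085 against 10218 to 12477, also without overlap, beside the lower Actg2, Lmod1 and Mylk. In that gate the 13 smooth muscle markers, none at 0, summed to 196 to 237 against 266 to 278 and the 8 general mesenchymal markers to 13296 to 16527 against 10502 to 12499, both without overlap. Cardiomyocyte markers, 2 of 17 at 0, summed in peribronchial fibroblasts to 34.1 to 43.3 against 46.8 to 63.4. The part of these sums in the values beside them was not tested.

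Over the 24 sums of a gate in a library, the pattern of Actc1 was most like that of Slmap (Pearson r 0.97 of log2 values), Fbxo32 (0.96), Cnn1 (0.96), Bri3 (0.96) and Cav2 (0.95) among 16954 genes. Acta2 was most like Tpm2 (0.99), Adgrl2, Lmod1, Ehd4 and Id4 (each 0.98). Myh11 was most like Cap2, Des and Sncg (each 0.99), then Lmod1 and Myl9 (each 0.98). The 24 points share 6 libraries and 4 gates, so they are not independent.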

How the data were processed

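The deposited files are matrices of raw UMI counts per gene and barcode, 1 library per mouse, from droplet libraries of a 3' kit per the labels' protocols. Per the file headers the software was Cell Ranger 8.0.1, with mm10 named in the submitters' processing notes. Positions are from GENCODE M21 (GRCm38), which matched 31011 of 31054 features, and promoter windows are from RefSeq.

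A barcode was retained from 300 genes and 500 UMIs upwards if mitochondrial transcripts made up no more than 15%, and 5770 predicted doublets (0.4% of cells per 1000 barcodes, from simulated doublets) were left out. A mesenchymal cell had at least 4 of 8 general markers at 10 or more UMIs per 10000 and little of other lineages (endothelial or immune markers under 10, epithelial under 20 per 10000, fewer than 3 mesothelial markers, no cardiomyocyte profile), which left out 1022 cells. Smooth muscle cells with little collagen fall outside this gate. Each cell went to the marker list with the highest scaled score and at least 4 own markers; 426 cells had none. These thresholds were set after the data were seen. Other fibroblasts are alveolar and adventitial fibroblasts together. Cells were also clustered (Leiden resolution 1, leidenalg 0.10.2, igraph 0.11.9) for the checks by cluster.

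Counts were summed per library and gate and tested with the edgeR 4.0.16 quasi-likelihood test (R 4.3.3, filterByExpr, TMM, group alone), adjusted by Benjamini-Hochberg over all genes of a gate at 0.05. The SE is the log2 fold change divided by the square root of F. Differences between gates were tested in 1 fit with the library as a block. The per-gate edgeR test was tested on simulated data. Shares used an exact two-sided permutation test over libraries, whose smallest p is 0.1. Alternatives were RLE factors, library size alone, DESeq2 1.42.0, no filter, leaving out 1 library at a time, blocking on the replicate number, stricter cells (1000 UMIs or more, 5% mitochondrial or less), doublets kept, cluster-based gates, a smooth muscle gate that uses the 10 genes, at most 1 UMI of other lineages, and, chosen after seeing the data, a margin of 0.25 between scores, alveolar or adventitial cells alone and pericytes set against other fibroblasts. All 10 genes are named in each gate where counted; a gene of another list is named if it passed edgeR, up to 4 per list and gate, and genes named as called by DESeq2 were added after their values were seen. The genes and lists were chosen with earlier results of these data known. The results of 1 list are not reported here. Of 18 names of transcription factors, 16 occur in the files. Replicates were separate mice, and the 6 pairs within a group differed beyond counting noise (chi-square per degree of freedom 22.1 to 48.6). Sums, shares and figures used matplotlib 3.10.9, pandas 2.3.3, scipy 1.17.1 and numpy 2.4.6 under Python 3.11.15.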

Additional observations from a re-analysis of the deposited data

Results flagged for a closer look

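Barcodes with cardiomyocyte markers lie outside the 4 gates and hold 38.7% ± 16.1 (SD, n = 3 libraries) of the Actc1 UMIs of the libraries labelled p16-DTR, against 5.79% ± 6.88 in the controls. This is a signal in cells that the comparisons of the gates do not use. It comes from 22 barcodes, 18 against 4 by group, and the number per library overlapped between the groups.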

How the results depend on the processing

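The smooth muscle gate held 30 to 88 cells per library and the pericyte gate 58 to 140, which limits what their sums can show. The number of calls differed between tests and filters, and the cause was not tested. Of 799 alternative values of the genes' log2 fold changes in 48 comparisons, 734 kept their sign and their side of 0.05, 17 passed newly, 2 no longer passed and 46 changed sign, 22 of these without a library being left out. All 46 changed a value that had not passed. For all 10 genes every smooth muscle library lay above every library of the other gates, also with cluster-based gates, doublets kept, stricter cells, a clear margin and each library left out. At most 1 UMI of other lineages could not be run for smooth muscle, peribronchial or pericyte cells, since a library was left with fewer than 20 cells.

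Genes called in smooth muscle numbered 0, but 20 with DESeq2, 204 without the filter on low counts and 0 to 4 with 1 library left out. In peribronchial fibroblasts 217 became 337 (DESeq2), 1047 (no filter) and 29 to 403 (1 library left out). In pericytes 8 became 41 (DESeq2), 321 (no filter), 17 (doublets kept), 44 (cluster-based gates), 62 (clear margin) and 0 to 30 (1 library left out). In other fibroblasts 1 became 4 (library size alone), 1359 (DESeq2), 384 (no filter), 2 (doublets kept), 90 (at most 1 UMI of other lineages), 3 (clear margin), 161 (alveolar alone), 0 (adventitial alone) and 1 to 183 (1 library left out). Over the 4 gates together 1 became 2 (RLE factors), 19 (library size alone), 1394 (DESeq2), 267 (no filter), 2 (doublets kept, cluster-based gates, and a smooth muscle gate with the 10 genes), 114 (at most 1 UMI of other lineages), 3 (clear margin) and 0 to 110 (1 library left out).

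Of the 10 genes, 1 was called in peribronchial fibroblasts, but 2 with DESeq2, 3 without the filter and 0 to 2 with 1 library left out. Over all genes DESeq2 called 156 higher and 181 lower of 11081 there. Without the filter it was 502 and 545 of 19674, and without the library labelled p16-DTR 1 it was 183 and 220 of 11120. In pericytes 0 became 3 (no filter), 1 (clear margin, Acta2 at 1.05 with adjusted p = 0.0493) and 0 to 2 (1 library left out). All genes called there were 180 higher and 141 lower of 17896 without the filter and 40 and 22 of 9659 with a clear margin. The fit without the library labelled p16-DTR 1, which called 2 of the 10, called 23 and 7 of 10523. In other fibroblasts 0 became 2 (DESeq2) and 1 (no filter), and over the 4 gates together 0 became 2 (DESeq2) and 1 (at most 1 UMI of other lineages, Myocd with edgeR adjusted p = 0.0452). All genes called in these fits were 541 higher and 818 lower of 17523 and 129 and 255 of 25472 in other fibroblasts. Over the 4 gates together they were 569 and 825 of 17782 and 26 and 88 of 12966. Differences between gates numbered 0, then 1 with library size alone (Actc1 in other fibroblasts, adjusted p = 0.0447, which rests on the few peribronchial UMIs) and 0 to 2 with 1 library left out. Shares without overlap numbered 11, then 10 without thinning, 9 at 2000 UMIs, and 13 to 18 with 1 library left out, where 3 against 2 libraries overlap less readily. The adjusted p of Actc1 in peribronchial fibroblasts ranged from 1.87e-24 to 0.0799 over 16 alternatives, of which 14 passed. All of these fits rest on the same 10 UMIs against 204, most of them in a few control cells. The Actc1 range is therefore a description and no sign that the call is robust. The adjusted p of Myocd ranged from 1.12e-06 to 0.188, of which 4 passed.

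Signs changed in these cases. In smooth muscle Acta2 was -0.16 with cluster-based gates, Actg2 0.0777, Cnn1 0.0412, Lmod1 0.0398 and Mylk 0.0339 with a gate that uses the 10 genes, and Actg2 0.0105 and Mylk 0.0167 with a clear margin. Myh11 in peribronchial fibroblasts was -0.0802 with cluster-based gates, and Actg2 in pericytes 0.18 with a gate that uses the 10 genes. In other fibroblasts Actc1 was -0.11 (doublets kept) and -0.38 (alveolar alone), Acta2 -0.0696 (at most 1 UMI of other lineages) and -0.32 (adventitial alone), and Cnn1 0.0514 (clear margin). Des there was -0.0174 (library size alone), -0.0161 (at most 1 UMI of other lineages), -0.0102 (cluster-based gates), -0.0519 (clear margin) and -0.0555 (alveolar alone). Tagln over the 4 gates was 0.00870 (doublets kept) and 0.0384 (clear margin). With 1 library left out, the log2 fold change in smooth muscle ran from -0.0163 to 0.0836 for Acta2, -0.28 to 0.14 for Actg2, -0.22 to 0.0897 for Cnn1, -0.11 to 0.0724 for Lmod1 and -0.11 to 0.0141 for Mylk. In peribronchial fibroblasts it ran from -0.80 to 0.16 for Cnn1 and -0.26 to 0.00234 for Lmod1, and in pericytes from -1.26 to 0.0853 for Actg2. In other fibroblasts it ran from -0.0756 to 0.61 for Actc1, -0.14 to 0.38 for Acta2, -0.44 to 0.000742 for Cnn1, -0.11 to 0.35 for Tagln and -0.0214 to 0.0350 for Des. Over the 4 gates it ran from -0.38 to 0.0681 for Acta2 and -0.26 to 0.19 for Tagln.

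Replicate numbers 1 to 3 occur in both groups, and the labels name no pairs. Deviations of same-numbered libraries correlated at 0.061, 0.013 and 0.018 in smooth muscle and 0.056, -0.052 and -0.036 in peribronchial fibroblasts. In pericytes they correlated at -0.125, 0.016 and 0.031 and in other fibroblasts at -0.135, -0.127 and 0.051. So few correlations show no pairing but cannot exclude one. With the replicate number as a block, the genes called were 8 in smooth muscle, 402 in peribronchial fibroblasts and 0 over the 4 gates together. The block called 2 of the 10 genes in peribronchial fibroblasts, Actc1, with the limit of its few UMIs, and Myocd (-0.67, edgeR adjusted p = 0.0103). Over the 4 gates together it called none of the 10. The log2 fold change of Tagln there changed sign, to 0.0553.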
